A study of Mus musculus with 4 samples.

Results

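The periportal zonation and urea cycle genes examined here were Cps1, Ass1, Asl, Arg1, Otc, Nags, Gls2, Hal, Sds and Cdh1. They were taken by gene symbol, and all 10 were found among the 22103 entries of the deposited FPKM table. Their RNA was compared between livers of 2 Brg1 LKO mice (labelled KO) and 2 wild type (WT) mice, all given alcohol for 15 days. Brg1, encoded by Smarca4, is the ATPase of a chromatin remodeling complex. Per the study's methods, LKO mice carried floxed Smarca4 alleles and Cre driven by the albumin promoter, so that deletion was directed to hepatocytes, and the 8-week-old male mice went through the NIAAA procedure, an ethanol diet that ends with a single ethanol gavage. The controls received alcohol too, so the comparison is of genotype within alcohol-fed livers, and no liver without alcohol was analysed here. Whole liver was sequenced, so that Smarca4 of other cell types stayed in the samples, and fewer cells of a type cannot be told apart from less RNA per cell.

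Hepatocytes along the liver lobule divide their work by position, which is called zonation. Periportal hepatocytes, which receive blood rich in oxygen and amino acids, carry most ureagenesis, gluconeogenesis and amino acid breakdown. Pericentral hepatocytes, next to the central vein, make glutamine from the ammonia that escapes the urea cycle and hold much of the cytochrome P450 activity, including the ethanol-oxidizing enzyme Cyp2e1. The urea cycle starts in the mitochondrion, where Cps1 makes carbamoyl phosphate and Otc joins it to ornithine. Ass1, Asl and Arg1 then carry the nitrogen to urea in the cytosol.

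No periportal or urea cycle gene passed the study's threshold of an unadjusted p under 0.05 with a change of more than 2-fold. The mean levels of 9 of the 10 were higher in LKO livers on the log2 scale, by at most 0.46. The mean of Nags was lower by 0.084. Of all genes tested, 46.1% had a positive log2 fold change. Cps1, Ass1, Asl, Otc and Gls2 were higher in both LKO livers than in both WT livers, while Arg1, Nags, Hal, Sds and Cdh1 overlapped between genotypes. Over the whole table, 10.7% of genes tested were higher and 10% lower in both LKO livers. Under other scalings of the libraries, described below, the 5 genes became 3 or 1. With limma, 0 of 10 genes had an unadjusted p under 0.05, the p-values ran from 0.172 to 0.825, and every adjusted p was 0.9999. Of the 12346 genes tested, 121 (0.98%) passed the study's threshold, 54 (0.437%) as higher and 67 (0.543%) as lower in LKO livers. At an adjusted p under 0.05 limma called 0 genes (0%), and 247 genes had an unadjusted p under 0.05. An exact permutation test of 2 against 2 livers cannot go below p = 0.333.

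The livers were first checked against their genotype labels, and here and below the values of a genotype are given in the order of its replicates 1 and 2. Smarca4 stood at 1.79 and 1.95 FPKM in WT versus 0.608 and 0.579 FPKM in LKO livers, which left 31.8% of the WT mean (log2 fold change -1.50, SE 0.34, unadjusted p = 0.000548 by limma). FPKM is a fragment count divided by transcript length in kilobases and by the total of mapped fragments of the library. From the steps between low values, the libraries were estimated to hold 72540000 to 80660000 reads. The 10 genes rested on an estimated 763 reads (Cdh1 in LKO replicate 2) to 93451 reads (Asl in LKO replicate 1), and the Poisson counting error was at most 3.62% for Cdh1 and at most 0.531% for Cps1, Ass1, Asl and Arg1. The differences between livers of 1 genotype described below were in most cases larger than this counting error, which does not cover differences between mice.

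Cps1, the rate-limiting mitochondrial entry enzyme of the urea cycle (chromosome 1: 67123026 to 67231259, plus strand, 38 exons), stood at 114 and 96.2 FPKM in WT versus 146 and 141 FPKM in LKO livers. Both LKO livers were higher than both WT livers, and they differed from each other less than the WT livers did. The LKO mean was 1.37 times the WT mean (143.5 ± 3.91 against 105 ± 12.5 FPKM, SD, n = 2 each). The log2 fold change was 0.46 with SE 0.32 and a 95% interval from -0.22 to 1.13 (unadjusted p = 0.172, limma). It was the highest of the 10, and 5.65% of all genes tested had a higher one.

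Otc (chromosome X: 10252367 to 10316864, plus strand), which makes citrulline in the mitochondrion, stood at 11.9 and 12.2 FPKM in WT versus 16.6 and 14.3 FPKM in LKO livers. The groups did not overlap, and the WT livers were almost equal. Its log2 fold change was 0.35 with SE 0.33 (unadjusted p = 0.303, limma).

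Nags (chromosome 11: 102145513 to 102149477, plus strand) makes N-acetylglutamate, the obligate activator of Cps1. Its level was 7.43 and 6.79 FPKM in WT versus 4.89 and 9.17 FPKM in LKO livers. LKO replicate 1 was the lowest and LKO replicate 2 the highest of the 4 livers, so the LKO livers were 1.88-fold apart and enclosed both WT livers. The log2 fold change was -0.084 (SE 0.37, unadjusted p = 0.825, limma), and it was 0.36 without LKO replicate 1. Within a library, the ratio of Nags to Cps1 FPKM was 0.0653 and 0.0706 in WT versus 0.0334 and 0.0651 in LKO livers. Both LKO ratios were under both WT ratios, but LKO replicate 2 lay close to WT replicate 1. The ratios of Ass1 to Asl, Cps1 to Otc, Arg1 to Ass1, Sds to Hal, Gls2 to Cps1 and Cps1 to Ass1 overlapped. The share of all genes with a separate ratio to Cps1 was not counted. The table lists Nags under a non-coding transcript of the gene whose exons overlap Gm11586 on the opposite strand, and reads of the pair may not be separated there.

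Ass1, the cytosolic enzyme that joins citrulline and aspartate (chromosome 2: 31470207 to 31520672, plus strand), was measured at 349.9 and 368 FPKM in the WT livers. The LKO livers held 501 and 427 FPKM, both above the WT livers, and the ratio of means was 1.29 (log2 fold change 0.36, SE 0.31, unadjusted p = 0.256, limma). Asl, which cleaves argininosuccinate to arginine and fumarate (chromosome 5: 130011504 to 130025019, minus strand), stood at 278 and 306 FPKM in WT versus 498 and 309 FPKM in LKO livers. The groups of Asl were separate by a margin of 1.01-fold only, since LKO replicate 2 lay next to WT replicate 2. Its log2 fold change was 0.43 (SE 0.33, unadjusted p = 0.223, limma) with all livers, 0.081 without LKO replicate 1 and 0.77 without LKO replicate 2.

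Arg1, the arginase that releases urea (chromosome 10: 24915221 to 24927484, minus strand), stood at 382 and 309 FPKM in WT versus 499 and 331 FPKM in LKO livers. LKO replicate 2 lay between the WT livers, so the groups overlapped. The log2 fold change was 0.24 (SE 0.33, unadjusted p = 0.476, limma), and it was -0.054 without LKO replicate 1 and -0.062 after quantile normalization. Summed over Cps1, Otc, Ass1, Asl and Arg1, the 5 enzymes of the cycle gave 1135 and 1092 FPKM in WT versus 1660 and 1221 FPKM in LKO livers. The LKO mean of the sum was 1.29 times the WT mean (1441 ± 310 against 1114 ± 30.6 FPKM, SD, n = 2 each), and LKO replicate 1 made most of that difference. The sum took 0.257% and 0.229% of all FPKM in WT versus 0.386% and 0.289% in LKO livers.

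Gls2, the liver-type glutaminase that frees ammonia from glutamine (chromosome 10: 128194457 to 128209939, plus strand), stood at 14.4 and 17.5 FPKM in WT versus 23.2 and 17.5 FPKM in LKO livers. LKO replicate 2 exceeded WT replicate 2 by a ratio of 1.002 only. Gls2 differed by 0.34 on the log2 scale with SE 0.34 (unadjusted p = 0.325, limma), by 0.14 without LKO replicate 1 and by 0.54 without LKO replicate 2. Exons of Gls2 overlap Spryd4 on the opposite strand.

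Hal, the histidine ammonia-lyase that starts histidine breakdown (chromosome 10: 93488768 to 93519304, plus strand), was nearly equal in the WT livers, at 9.67 and 9.71 FPKM. The LKO livers lay on either side, at 9.497 and 11.4 FPKM. Its change on the log2 scale was 0.10 (SE 0.33, unadjusted p = 0.766, limma), and it was -0.029 without LKO replicate 2.

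Sds, the serine dehydratase that turns serine into pyruvate and ammonia (chromosome 5: 120476531 to 120483932, plus strand), varied most among the 10. It stood at 53.0 and 26.8 FPKM in WT versus 100.5 and 22.3 FPKM in LKO livers. The highest and the lowest of the 4 livers were both LKO, 4.51-fold apart, and the WT livers were 1.98-fold apart. Over all livers the log2 fold change was 0.33 with SE 0.55 (unadjusted p = 0.562, limma). It turned to -0.75 without LKO replicate 1 and to -0.16 without WT replicate 2, and reached 1.41 without LKO replicate 2 (unadjusted p = 0.00547, adjusted p = 0.209, limma), the one setting in which a gene of the 10 passed the study's threshold. Exons of Sds overlap Gm15690 and Plbd2 on the opposite strand.

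Cdh1, E-cadherin (chromosome 8: 106603351 to 106670246, plus strand), is an adhesion protein that is richest on periportal hepatocytes and is also made by bile duct cells. It was the lowest of the 10, at 2.43 and 2.55 FPKM in WT versus 2.99 and 2.38 FPKM in LKO livers. The groups overlapped, with the LKO livers on either side of the WT livers. The log2 fold change was 0.096 (SE 0.34, unadjusted p = 0.781, limma) and -0.064 without LKO replicate 1. Beside it, the summed FPKM of 8 cholangiocyte markers was 5.21 to 5.86 in the WT livers and 4.25 to 4.67 in the LKO livers. None of these 8 passed the study's threshold, Sox9 was lower by 0.84 and Epcam higher by 0.17 on the log2 scale, and Krt7 and Cftr stayed under 0.1 FPKM in every liver. Their part in the Cdh1 values was not tested.

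**Figure D1:**
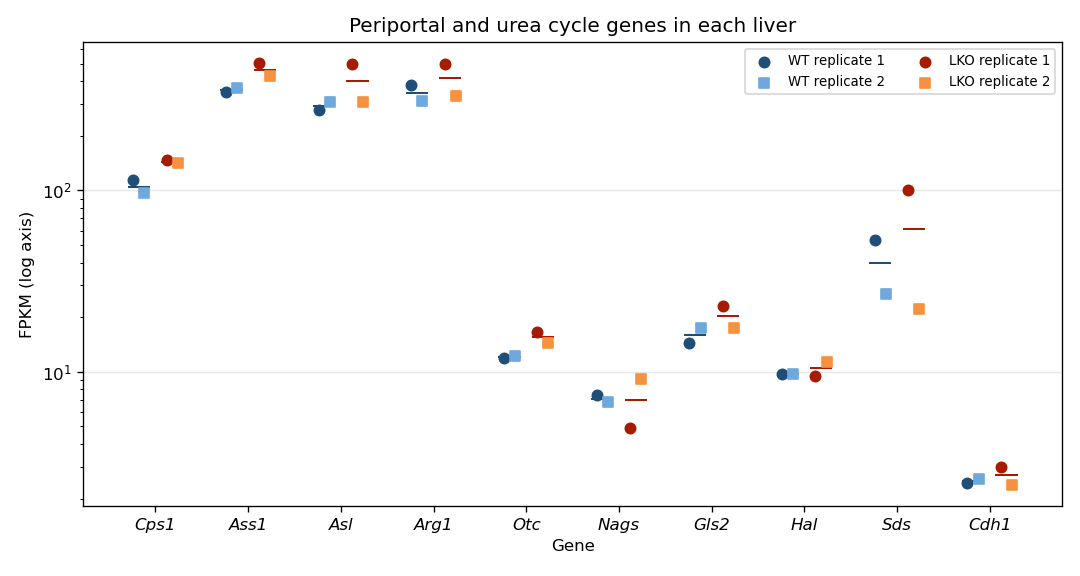
FPKM of the 10 genes in each of the 4 livers on a log axis, with a point for each liver and a horizontal bar for the mean of each genotype (n = 2). Cps1, Ass1 and Otc have both LKO livers clearly above both WT livers, Asl and Gls2 touch, and the LKO livers of Sds lie at 100.5 and 22.3 FPKM.

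On the FPKM scale, the mean level over all 4 livers was 159-fold higher for Ass1 than for Cdh1. In WT livers the order was Ass1 (359 FPKM), Arg1 (345.5), Asl (292), Cps1 (105), Sds (39.9), Gls2 (15.9), Otc (12.1), Hal (9.69), Nags (7.11) and Cdh1 (2.49). The same order held for the LKO means. Ass1 and Arg1 overlapped in WT livers, and in LKO livers Ass1 overlapped Arg1, Arg1 overlapped Asl and Sds overlapped Gls2. All other neighbours were separate. The 3 cytosolic enzymes of the cycle thus stood above the mitochondrial pair, with Otc lower than Cps1 in every liver. These levels depend on the transcript length used for each gene, and for Sds the listed transcript (1207 bases) is not the longest annotated one (1288 bases).

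Promoter sequence was found for 4 of the 10 genes among the RefSeq windows of GRCm38.p6. These run from 250 bases before to 50 bases after the start of a gene in RefSeq. For Ass1 and Otc that start differs from the transcript start given above, and the Otc window ends before the latter. The windows of Ass1 and Otc are shown because both genes did not overlap between genotypes, and that of Hal because it overlapped and alone held any of the letters searched. All are written 5′ to 3′ on the plus strand, and capitals mark matches.

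Ass1, chr2:31470020-31470319: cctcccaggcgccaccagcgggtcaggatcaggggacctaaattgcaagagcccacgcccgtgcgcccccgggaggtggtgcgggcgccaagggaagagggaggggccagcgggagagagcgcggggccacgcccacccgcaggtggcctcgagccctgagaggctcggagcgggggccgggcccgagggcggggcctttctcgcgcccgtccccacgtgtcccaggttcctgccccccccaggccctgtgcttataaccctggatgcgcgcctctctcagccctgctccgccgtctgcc

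Otc, chrX:10252055-10252354: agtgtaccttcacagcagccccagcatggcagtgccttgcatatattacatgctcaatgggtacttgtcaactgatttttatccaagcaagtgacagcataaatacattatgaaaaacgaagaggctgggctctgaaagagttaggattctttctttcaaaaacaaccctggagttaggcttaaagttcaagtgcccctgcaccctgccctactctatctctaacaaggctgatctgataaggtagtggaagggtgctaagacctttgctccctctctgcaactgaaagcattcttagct

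Hal, chr10:93488518-93488817: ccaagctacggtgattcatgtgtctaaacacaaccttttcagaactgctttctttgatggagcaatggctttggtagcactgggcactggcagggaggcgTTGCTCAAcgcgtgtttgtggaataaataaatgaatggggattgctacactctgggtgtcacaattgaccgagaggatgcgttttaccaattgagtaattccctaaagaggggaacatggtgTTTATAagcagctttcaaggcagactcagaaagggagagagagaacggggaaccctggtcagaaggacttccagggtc

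The Ass1 window had 74.0% G and C, the Nags window (chr11:102145263-102145562) 57.7%, the Hal window 47.7% and the Otc window 44.3%, beside a median of 52.7% over all 32851 windows. Both strands were searched for TATAAA, the cyclic AMP element TGACGTCA, the C/EBP letters TTGCGCAA and TTNNGCAA, and the HNF4 letters CAAAGTCCA. TATAAA occurred in 13.6% of all windows and, among the 4, in Hal, read as TTTATA from 28 bases before the start. TTNNGCAA occurred in 10.8% of all windows and, among the 4, in Hal, read as TTGCTCAA from 150 bases before the start. TGACGTCA (1.79% of all windows), TTGCGCAA (0.183%) and CAAAGTCCA (0.475%) were in none of the 4. Any window with TTGCGCAA also counts for TTNNGCAA. These are matches of letters and not measured binding.

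The genes were then read together against all genes tested. Their median log2 fold change was 0.34, against -0.024 over all genes, and 9.87% of all genes lay above that median. A positive sign was seen in 9 of 10 genes, against 46.1% of all genes. The 5 genes with both LKO livers above both WT livers made 50% of the 10, against 10.7% of all genes tested, and 0 of 10 were lower in both LKO livers, against 10% of all genes tested. These counts depended on how the libraries were scaled. After median-ratio rescaling Cps1, Ass1 and Gls2 were the 3 genes higher without overlap (14.9% of all genes were higher and 14.1% lower). After rescaling to the total without the 100 most abundant genes Cps1 was the only one (8.96% of all genes were higher and 20.9% lower). The margin of Cps1 was narrow under both. Relative to the WT mean, WT replicate 1 stood at 1.189 and LKO replicate 2 at 1.208 after median-ratio rescaling. Without the 100 most abundant genes they stood at 1.186 and 1.198. The median of the 10 was 0.13 after quantile normalization.

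The positive values were uneven between the LKO livers. LKO replicate 1 had the highest value of the 4 livers for 8 of the 10 genes, the exceptions being Nags and Hal. How many of all genes tested were highest in that liver was not counted. Without LKO replicate 1 the median of the 10 was 0.19 and that of all genes 0.12. Without LKO replicate 2 these medians were 0.48 and -0.17. Cps1, Ass1, Asl, Otc and Gls2 kept a positive log2 fold change in all 13 alternative settings. Cps1 lay between 0.33 and 0.58, Ass1 between 0.25 and 0.48 and Otc between 0.24 and 0.46 with any 1 liver left out. After quantile normalization Ass1 was at 0.14 and Asl at 0.13.

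**Figure D2:**
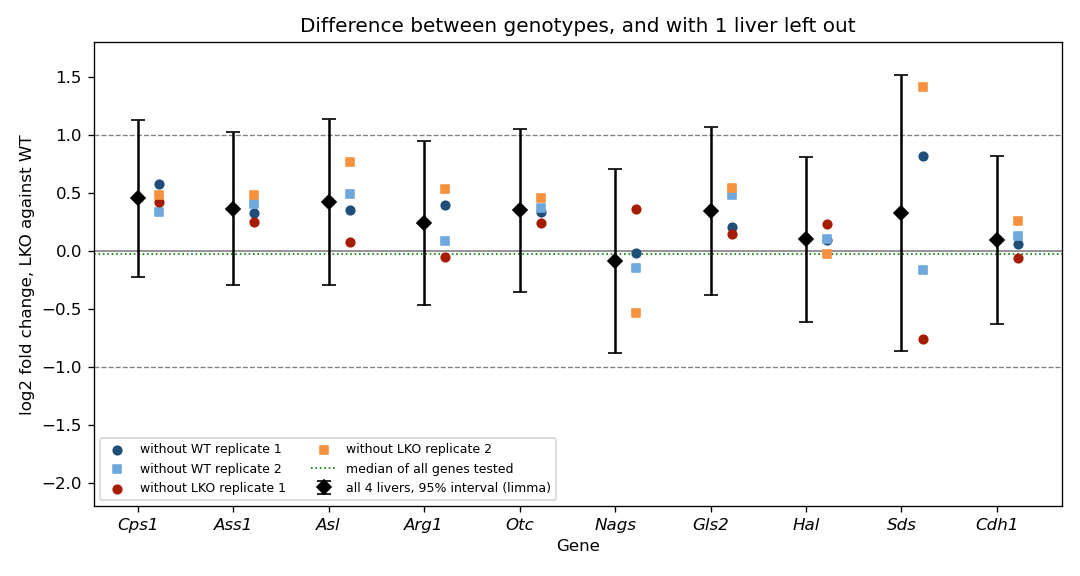
Log2 fold change of each gene, LKO against WT, from all 4 livers (diamonds with 95% intervals from limma) and with 1 liver left out (coloured points). Dashed lines mark a 2-fold change and the dotted line marks the median of all genes. Every interval spans 0, and the points for Sds run from -0.75 to 1.41.

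Pericentral genes give the other side of zonation. Glul, the glutamine synthetase of the last pericentral hepatocytes, stood at 91.7 and 134.5 FPKM in WT versus 62.6 and 79.4 FPKM in LKO livers. Both LKO livers were below both WT livers, with a log2 fold change of -0.65 (SE 0.34, unadjusted p = 0.0736, limma) that stayed between -0.93 and -0.38 with any 1 liver left out. Oat, the pericentral ornithine aminotransferase, stood at 43.4 and 88.7 FPKM in WT versus 94.1 and 64.2 FPKM in LKO livers, with overlap (0.33). Cyp2e1 stood at 455 and 673 FPKM in WT versus 478 and 620 FPKM in LKO livers, also with overlap (-0.024).

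A ratio within a library does not depend on the scaling between libraries. The ratio of Cps1 to Glul was 1.24 and 0.715 in WT versus 2.34 and 1.77 in LKO livers, with an LKO mean of 2.1 times the WT mean. The summed 5 enzymes gave 12.4 and 8.12 times the Glul level in WT versus 26.5 and 15.4 times in LKO livers. For 8 of the 10 genes the ratio to Glul was higher in both LKO livers than in both WT livers, the exceptions being Nags and Sds, and for Arg1 the margin was a ratio of 1.002. Of all genes tested, 73.3% had a higher ratio to Glul in both LKO livers, so the share of the 10 was close to that of the table. Glul, itself lower in both LKO livers, is the denominator of all these ratios, and they are not separate measurements. Against Oat, 0 of 10 ratios were higher without overlap (0.486% of all genes tested), and the LKO mean ratio was 0.785 to 1.02 times the WT mean. Against Cyp2e1, 0 of 10 ratios were higher without overlap (8.87% of all genes tested), while the LKO mean ratio was above the WT mean for 9 of 10 genes, from 0.947 times for Nags to 1.58 times for Sds. Against the sum of 8 hepatocyte markers, the ratio of Cps1 was without overlap, at 0.00298 and 0.00309 in WT versus 0.00448 and 0.00374 in LKO livers, and the other 9 overlapped (6.95% of all genes tested were higher without overlap). Apart from Cps1 against the hepatocyte markers, the genotypes thus separated only with Glul among these denominators. With Glul, most genes of the table separated too.

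**Figure D3:**
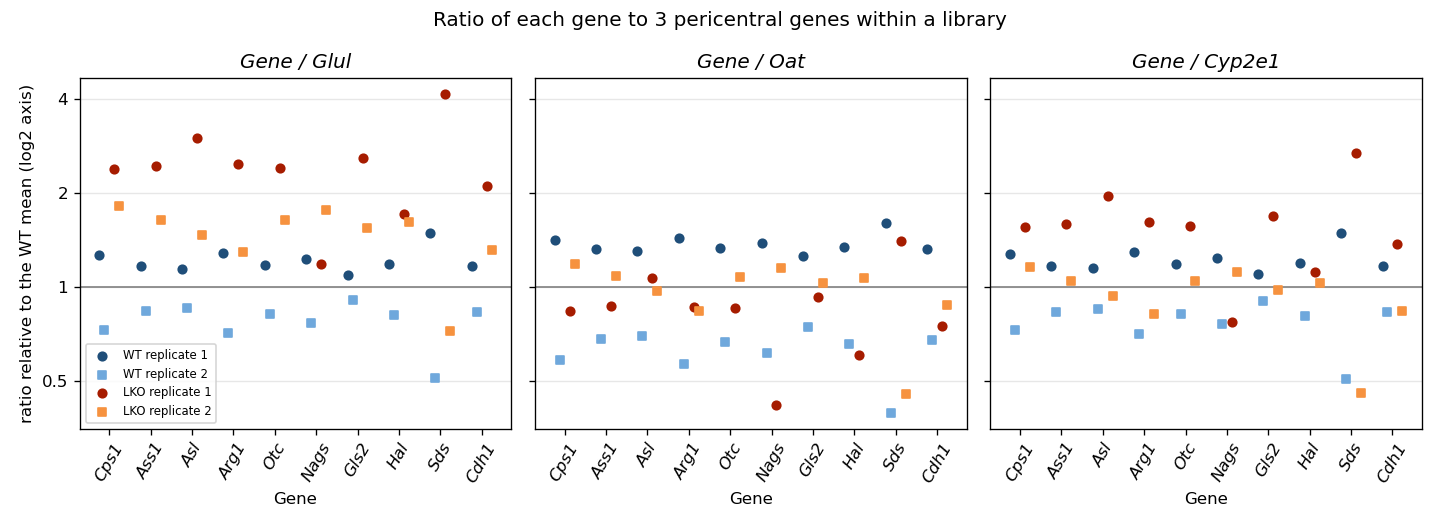
Ratio of each gene's FPKM to that of Glul, Oat or Cyp2e1 in the same library, divided by the mean ratio of the WT livers, on a log2 axis, with a point for each liver. Against Glul, 8 of 10 genes have both LKO livers above both WT livers, beside 73.3% of all genes tested, and against Oat (0.486%) and Cyp2e1 (8.87%) none has.

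Genes of the same and related pathways were read as 6 lists. Of their 89 genes, 87 were tested and 0 passed the study's threshold. An unadjusted p under 0.05 by limma was seen for 247 of all 12346 genes tested and for 1 of these 87. In both LKO livers 12 were higher and 4 lower than in both WT livers, against 10.7% and 10% of all genes tested. These counts, and the lack of overlap of related genes named below, are on the deposited FPKM scale. They were not recounted under other scalings. Median-ratio rescaling divided the WT libraries by 0.9117 and 1.129 and the LKO libraries by 0.8845 and 1.109. After it, Rspo3 and Uroc1, both named below, overlapped between genotypes.

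Other urea cycle, ammonia and nitrogen genes had 16 of 17 members tested, 11 with a positive and 5 with a negative log2 fold change, and a median of 0.092. Got1, the cytosolic aspartate aminotransferase, had the highest value of 0.60, from 71.0 and 76.6 FPKM in WT versus 201.8 and 61.6 FPKM in LKO livers. Car5a, the mitochondrial carbonic anhydrase that supplies bicarbonate to Cps1, had the lowest value of -0.31. Lgsn was listed at 0 in all livers. The members without overlap, named after their values were seen, were Slc25a13, Got2 and Slc38a3, all higher in LKO livers. Slc25a13, the mitochondrial aspartate carrier that feeds Ass1, stood at 41.1 and 52.9 FPKM in WT versus 62.0 and 57.96 FPKM in LKO livers. Slc25a15, the mitochondrial ornithine carrier that feeds Otc and also named after its values were seen, stood at 33.5 and 29.9 FPKM in WT versus 79.7 and 24.3 FPKM in LKO livers. As with Sds and Got1, its highest and its lowest liver were both LKO.

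The other periportal genes, all 16 tested, had 10 positive and 6 negative log2 fold changes and a median of 0.091. Tat, a tyrosine aminotransferase, had the highest value of 0.53, from 158 FPKM in both WT livers and 412 and 126 FPKM in the LKO livers, and G6pc, the last enzyme of glucose release, had the lowest, -0.47. Pigr and Hrsp12 were the members without overlap, both higher in LKO livers. Leaving out WT replicate 1 gave a median of -0.024 and leaving out WT replicate 2 one of 0.30. The 14 pericentral genes had 2 positive and 12 negative log2 fold changes and a median of -0.15. Glul and Slc13a3 were the members without overlap, both lower in LKO livers. Without WT replicate 1 the pericentral median was -0.44, and without WT replicate 2 it was 0.087.

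Among 14 tested genes of histidine and serine catabolism, 8 had positive and 6 negative log2 fold changes, with a median of 0.048 that ran from -0.14 to 0.22 with 1 liver left out. Agxt (0.22) and Psph (-0.32) marked the ends, and Uroc1, Gldc and Dld were without overlap and higher in LKO livers. Uroc1 acts right after Hal in histidine breakdown, and it stood at 17.1 and 18.3 FPKM in WT versus 19.9 and 19.6 FPKM in LKO livers. The 10 adherens junction genes had a median of 0.013, with Mllt4 (0.24) and Pvrl2 (-0.17) at the ends, and Ctnna1 and Vcl without overlap.

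The 17 regulators of urea cycle and zonation genes had 7 positive and 10 negative log2 fold changes and a median of -0.067. Lgr4, a receptor for the R-spondins, had the highest value of 0.34. Wnt9b, a Wnt ligand made by endothelial cells of the central vein, had the lowest, -0.89 (SE 0.41, unadjusted p = 0.0471, adjusted p = 0.9999, limma). It stood at 0.394 and 0.457 FPKM in WT versus 0.311 and 0.0945 FPKM in LKO livers, both lower, and the LKO mean was 0.477 times the WT mean. With any 1 liver left out the log2 fold change ran from -1.43 to -0.35. In LKO replicate 2 Wnt9b lay under the pseudocount of 0.1 FPKM. On the log2(FPKM + 0.1) scale of the test its change was short of 2-fold, and with a pseudocount of 0.01 1 related gene passed the study's threshold. Rspo3, an R-spondin of the central vein, was the other regulator that was lower without overlap, at 1.497 and 1.51 FPKM in WT versus 1.25 and 0.834 FPKM in LKO livers. After median-ratio rescaling its groups overlapped. Hnf4a, a hepatocyte transcription factor, and Nr3c1, the glucocorticoid receptor, were higher without overlap. Beside these ligands, the summed FPKM of 8 endothelial markers was 27.1 to 28.8 in the WT livers and 22.3 to 26.7 in the LKO livers, and 7 of the 8 had negative log2 fold changes, from -0.50 (Oit3) to 0.022 (Cdh5). Their part in the values of Wnt9b and Rspo3 was not tested.

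**Figure D4:**
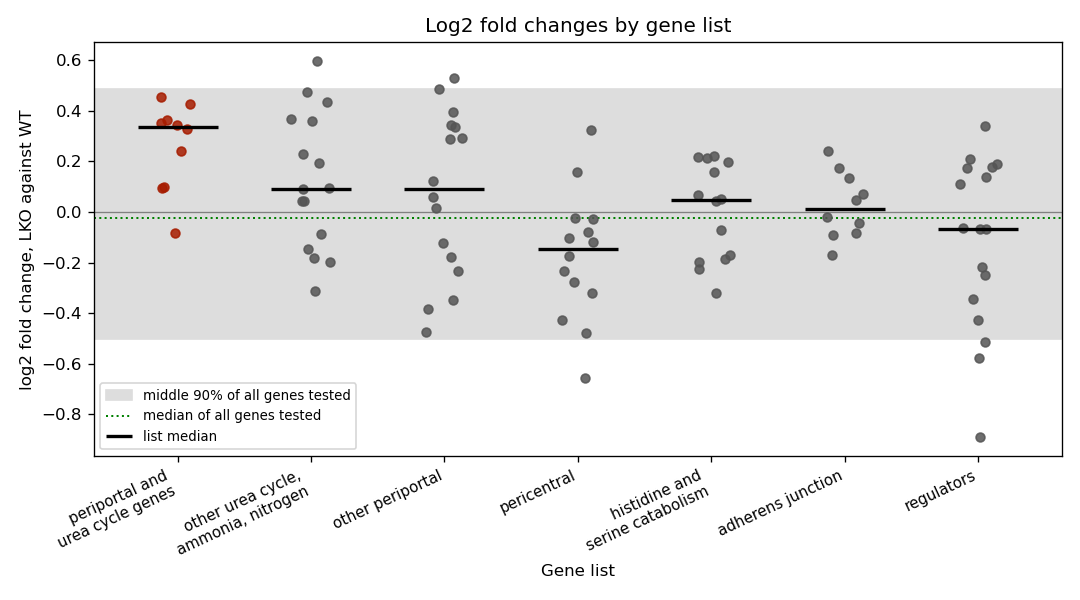
Log2 fold changes, LKO against WT, of the 10 genes (red) and of 6 related lists (grey points), with a black bar for the median of each list. The grey band holds the middle 90% of all genes tested, from -0.50 to 0.49, the 10 genes all lie inside it, and the medians run from -0.15 for pericentral genes to 0.34 for the 10 genes.

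Markers of the cell types that whole liver holds were read in the same libraries. The 8 hepatocyte markers were the most abundant, had 0 members past the threshold and summed to 31100 to 38200 FPKM in the WT livers and 32630 to 37610 FPKM in the LKO livers. Over all marker lists, 4 of 50 tested genes passed the study's threshold, all higher in LKO livers. Of all genes tested, 0.98% passed it, 0.437% as higher in LKO livers. Cd68 (log2 fold change 1.47), Cd5l (1.21) and Vsig4 (1.00) were macrophage markers, and Hbb-bs (1.42) was a hemoglobin gene. After median-ratio rescaling 1 marker gene passed, and without LKO replicate 1 the log2 fold change of Hbb-bs was -0.022. Without LKO replicate 2 those of Cd5l and Vsig4 were 0.25 and 0.15, and that of Cd68 was 1.05. The 8 Kupffer cell and macrophage markers summed to 39.7 and 41.7 FPKM in the WT livers, 51.7 in LKO replicate 1 and 116 in LKO replicate 2. All 8 had positive log2 fold changes, and 6 were higher in both LKO livers than in both WT livers (10.7% of all genes tested). The erythroid markers summed to 21.9 and 40.4 FPKM in the WT livers, 181 in LKO replicate 1 and 26.8 in LKO replicate 2. LKO replicate 1, in which 8 of the 10 periportal and urea cycle genes were highest, was thus the liver with the highest hemoglobin RNA, and LKO replicate 2 the one with the highest macrophage RNA. The share of all genes tested that were highest in LKO replicate 1 was not counted. Stellate cell markers summed to 24.8 to 32.6 FPKM in the WT livers and 25.2 to 32.2 in the LKO livers, neutrophil markers to 4.46 to 11.7 and 8.16 to 16.6, T, B and NK cell markers to 0.0838 to 0.308 and 0.344 to 0.566, and pancreas acinar markers to 1.21 to 2.29 and 1.17 to 1.58. Of the T, B and NK cell markers, 0 of 8 reached the filter of a mean of 0.1 FPKM, and Cpa1 of the pancreas was at 0 in all livers. The part of these markers in the values of the 10 genes was not tested.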

How the data were processed

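RNA was measured in whole liver of 2 WT and 2 LKO mice, grouped by the genotype labels. No label names a batch. P-values weigh the difference between genotypes against the spread between mice within a genotype, which rests on 2 mice each. Limma draws the variance of each gene towards that of genes of similar level. Standard errors and p-values therefore rest on the gene's own spread and on that of other genes (13.82 degrees of freedom in all). The authors deposited FPKM per transcript. The study's methods name a stranded TruSeq library, an Illumina sequencer, HISAT2, GRCm38 and Cufflinks, whereas the labels name a BGIseq protocol and the submitters' processing notes name HISAT2 2.0.4 and StringTie 2.1.4 with GRCm38 or mm10, so the quantifier and whether reads were counted by strand are uncertain. No normalization between libraries is stated. FPKM divides by the library total, so a few abundant genes can shift all others.

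Of the 22103 entries, 5250 were at 0 in all livers, and 27 symbols that had become dates were restored from GENCODE M21, which also gave positions and exons (GRCm38). Reads were estimated from the FPKM steps of transcripts of at least 2000 bases, where 88.9% to 89.7% of values of up to 20 reads lay within 0.1 of a whole read. Genes averaging 0.1 FPKM or more (12346) entered the test, which used limma 3.58.1 (lmFit and eBayes, trend on) under R 4.3.3. Values were log2(FPKM + 0.1), with genotype alone in the model and Benjamini-Hochberg adjustment over all genes tested. Log2 fold changes are on that scale and understate changes of low genes. The procedure was tested on simulated data. Tables and plots used Python 3.11.15, pandas 2.3.3 and matplotlib 3.10.9. The 10 genes and all lists were chosen with earlier results of these data known. Text names all 10 genes, every listed gene past the threshold, the highest and the lowest log2 fold change of each list of interest, and Smarca4, Glul, Oat and Cyp2e1. Related genes named for lacking overlap, Slc25a15 and genes at or near 0 were picked after their values were seen. All 166 listed genes were found, 7 under another symbol. Alternatives changed the pseudocount, the filter, the scaling, the variance trend and the replicate block, and left out each liver in turn.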

Additional observations from a re-analysis of the deposited data

How the results depend on the processing

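With all 4 livers, 1 of 90 values of the 10 genes under alternatives changed sign (Arg1, -0.062 after quantile normalization), and no gene passed the threshold. With 1 liver left out, where a lone liver is assumed to vary like the other genotype, 6 of 40 changed sign: without LKO replicate 1 Arg1 (-0.054), Nags (0.36), Sds (-0.75) and Cdh1 (-0.064), without LKO replicate 2 Hal (-0.029) and without WT replicate 2 Sds (-0.16). The ranges were -0.054 to 0.54 (Arg1), -0.53 to 0.36 (Nags), -0.029 to 0.23 (Hal), -0.75 to 1.41 (Sds) and -0.064 to 0.26 (Cdh1). The count of the 10 past the threshold was 0 to 1 and their median 0.19 to 0.48 with 1 liver left out, and the median was 0.13 after quantile normalization. The median of all genes itself moved between -0.17 and 0.12. Of the 10 genes, 3 did not overlap after median-ratio rescaling and 1 after rescaling without the 100 most abundant genes, alternatives chosen for this count after seeing the data. All genes past the threshold numbered 121, and 18 with a pseudocount of 1, 80 without a filter, 68 with a filter at 1 FPKM and 73 (without WT replicate 2) to 557 (without LKO replicate 1) with 1 liver left out. Genes with an adjusted p under 0.05 numbered 2 with that filter and 0 to 271 (without LKO replicate 1) with 1 liver left out. Related genes past the threshold numbered 1 with a pseudocount of 0.01 and 0 to 5 (without LKO replicate 2) with 1 liver left out. Marker genes past it numbered 4, and 2 with a pseudocount of 1 or 0.01 or without the variance trend, 1 without a filter, after median-ratio or quantile rescaling or without the 100 most abundant genes, 7 with the filter at 1 FPKM, and 2 (without WT replicate 1) to 11 (without LKO replicate 2) with 1 liver left out. With 1 liver left out, list medians ran from 0.022 to 0.22 (other urea cycle genes), -0.024 to 0.30 (other periportal), -0.44 to 0.087 (pericentral), -0.37 to 0.24 (regulators), -0.14 to 0.22 (histidine and serine catabolism) and -0.037 to 0.17 (adherens junction). The causes were not tested. Livers share replicate numbers, but same-numbered livers did not deviate together (correlation 0.031), and with the replicate block 108 genes passed the threshold, 0 of the 10, and the median of the 10 was 0.34. Counting error of at most 3.62% was below the standard errors between livers, and the 2 livers per genotype limit these values.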
